A study of Mus musculus with 43 samples.

Results

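Genes of enucleation, autophagy and organelle clearance were followed here: Bnip3l, Bcl2l1, Ulk1, Atg4b, Gabarapl2, Xpo7, Trim58, Trim10, Fbxo7 and Alox15. These 10 genes, of 21521 protein-coding genes used, were taken by name from RefSeq's genes on GRCm38.p6, whose chromosomes have the coordinates of mm10. Each gene was given every called EKLF region centred between 10 kb below its lower end and 10 kb above its upper end. EKLF, the product of Klf1, is a zinc-finger transcription factor of red cell precursors, and chromatin immunoprecipitation (ChIP) with the antibody 7B2a recovered the DNA it occupied. The tissue was mouse fetal liver at embryonic day E13.5, labelled primary erythroid. One group carried the WT alleles of the Nan strain, and the other was Nan/+, heterozygous for the Nan allele of Klf1, which alters a zinc finger of the protein. Each group had 3 ChIP libraries, described as biological replicates from littermates, and the authors made 1 list of regions per genotype from the 3 together. Of the 43 samples in the series, those for CBP, H3K27ac, RNA polymerase II and ATAC were not analysed here.

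The libraries held 74140385 to 103170594 tags in WT and 72023512 to 100763687 in Nan/+, per the file headers. The lists give positions without a strength per region or a value per replicate. There is therefore no spread between replicates and no test of a difference between the genotypes below, and every count describes these 2 lists. A region in 1 list alone can lie just under the calling threshold in the other. The lists were also called with different size and minimum distance settings, and the effect of these on counts and overlaps was not tested. In Nan/+ tissue the lists do not tell whether the normal or the Nan form of EKLF was bound. No expression values were used, so the labelled cell type could not be checked against its markers.

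A red cell precursor of mammals expels its nucleus and then degrades its remaining organelles while it matures as a reticulocyte. Autophagy wraps cargo in a double membrane that is built by a kinase complex, a lipid kinase complex and ATG8 proteins attached to lipid, and the cargo is delivered to lysosomes. In reticulocytes this route removes mitochondria, while chromatin condensation, nuclear export, ubiquitin ligases and the cytoskeleton prepare the nucleus for expulsion.

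RefSeq promoter windows of GRCm38.p6, running from 250 bases before a listed transcription start to 50 after it, were given for 7 of the 10 genes. The windows were searched on both strands for CCNCNCCC, a motif of the kind EKLF binds. They were also searched for the hexamers AGATAA and TGATAA, the element that GATA factors bind. CCNCNCCC was found in 49.5% of all 32807 windows of the same length, its form CCNCACCC in 16.6% and its form CCNCGCCC in 24.0%, while the GATA element was found in 18.6%. Of the 7 genes, Bcl2l1, Ulk1, Atg4b and Gabarapl2 had a CCNCNCCC match in a window, and Bcl2l1 and Trim10 had a GATA element. Bcl2l1 had 3 windows and Fbxo7 had 2, and a gene counted if any of its windows matched. The shares over all windows are per window, so they differ in unit from these gene counts. The E-box CANNTG, found in 72.3% of all windows, was present in those of Bcl2l1, Trim10 and Fbxo7. A match describes the sequence and does not show binding. Sequence outside the windows was not searched. The sequence upstream of Ulk1 is shown because a WT region covered the whole window. The short pieces from Atg4b and Gabarapl2 are shown because the motif was present there without a region of either list. From Bcl2l1, 1 piece lies in a Nan/+ region and 1 outside any region. All are written 5′ to 3′ on the strand of the gene, with the matches in capitals.
Ulk1, chr5:110810121-110810331, minus strand, outside the gene body: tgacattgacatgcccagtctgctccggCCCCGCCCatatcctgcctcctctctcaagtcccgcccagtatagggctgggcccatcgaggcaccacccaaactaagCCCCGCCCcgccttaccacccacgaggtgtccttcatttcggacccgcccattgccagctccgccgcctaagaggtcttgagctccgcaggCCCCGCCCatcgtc
Gabarapl2, chr8:111940662-111940691, plus strand: cccgccggaagCCCCGCCCcgggaggttgc
Atg4b, chr1:93754884-93754913, plus strand: cgcgccgaggCCCCACCCCCcgcgtgccca
Atg4b, chr1:93754839-93754868, plus strand: ggcgcgggccGGGGGCGGGGcggccgcgtc
Bcl2l1, chr2:152830754-152830783, minus strand, outside any region: aaagaaaggagGGGTGGGGggaaattacac
Bcl2l1, chr2:152828513-152828542, minus strand, GATA element in a Nan/+ region: attgtgacccaaAGATAAagagagcagagg

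The 10 genes held 19 WT regions and 28 Nan/+ regions, or 1.47 Nan/+ regions per WT region. The whole lists held 9181 and 15564, a ratio of 1.70, so the larger Nan/+ number at these genes went with a longer Nan/+ list. Without Nan/+ regions of the smallest width in that list, 12 Nan/+ regions were left beside the 19 in WT, which turns the direction. That filter, also used at single genes below, took no WT region out. The whole lists turned in the same way under it, to 7083 Nan/+ and 9181 WT regions. A region was present at 7 of the 10 in WT and at 8 of the 10 in Nan/+, against 33.5% and 37.5% of all protein-coding genes. Both lists had a region at 6 genes (Bnip3l, Bcl2l1, Ulk1, Xpo7, Trim58 and Trim10), where the background was 23.5%. Gabarapl2 had a region in WT alone (background 10.1%), and Atg4b and Fbxo7 had regions in Nan/+ alone (background 14.1%). Alox15 had none in either list, as did 52.4% of all genes. Nan/+ regions outnumbered WT regions at 5 of the 10 (background 23.0%) and WT regions outnumbered Nan/+ regions at 3 (background 15.2%). The genes were longer than most, with a median body of 28.5 kb against 17.4 kb. Per 10 kb of body and flanks they held 0.329 WT and 0.484 Nan/+ regions, against 0.0857 and 0.119 over all genes. The 10 genes were chosen with earlier results of these data known, and the background took in genes whether or not fetal liver expresses them. The higher values are therefore a description, and enrichment was not tested.

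**Figure D1:**
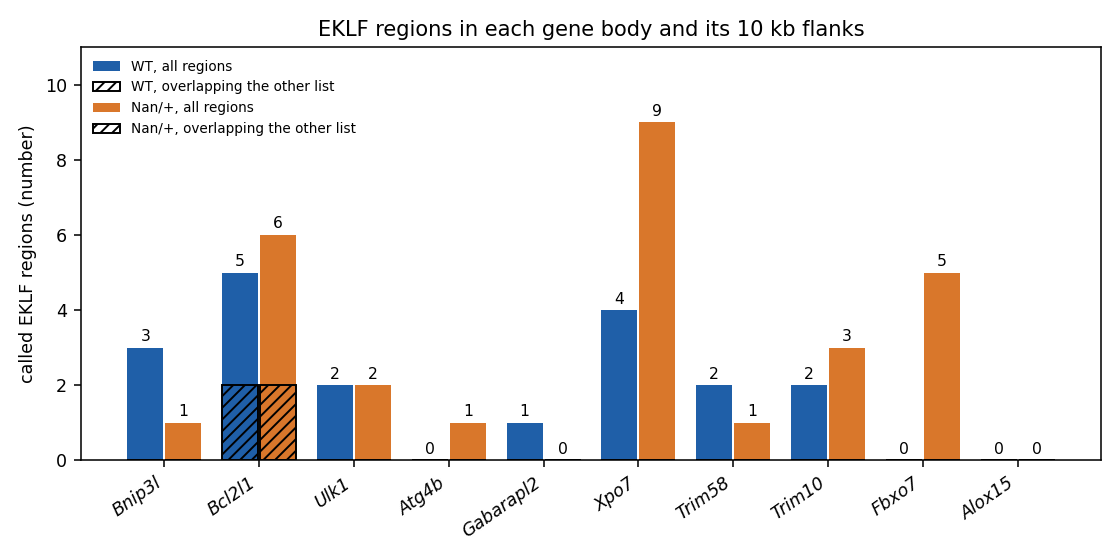
Number of EKLF regions called in the body and 10 kb flanks of each of the 10 genes, WT in blue and Nan/+ in orange, with regions that overlap the other list hatched. Xpo7 has the most Nan/+ regions, 9, Bcl2l1 alone has hatched regions, and Alox15 has 0 in both lists.

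The 2 lists were next compared by position. An overlap of at least 1 bp with the other list was found for 2 of the 19 WT regions, or 10.5% (95% exact Clopper-Pearson interval 1.30 to 33.1), and for 2 of the 28 Nan/+ regions, or 7.14% (0.877 to 23.5). These intervals cover counting error only, and neighbouring regions of 1 gene are not independent. Over the whole lists the shares were 24.5% and 14.7%, both inside these intervals. Both overlapping pairs lay in Bcl2l1, so 1 of the 6 genes with regions in both lists had one, against 56.7% of the 5049 protein-coding genes with regions in both. Over all genes, with or without regions, the numbers were 1 of 10 and 13.3%. With 6 genes and no test, nothing particular to these genes is read from the difference. In a further 2 WT regions, at Xpo7 and Trim10, a Nan/+ region lay within 1 kb without touching (10.5%, against 9.31% of the WT list). The same was seen for 2 Nan/+ regions (7.14%, against 5.55% of the Nan/+ list), so both shares were near those of the lists. Among regions that did not overlap, the median gap to the other list was 4.86 kb in WT and 9.83 kb in Nan/+, while the same medians over the whole lists were 11.5 and 29.7 kb.

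**Figure D2:**
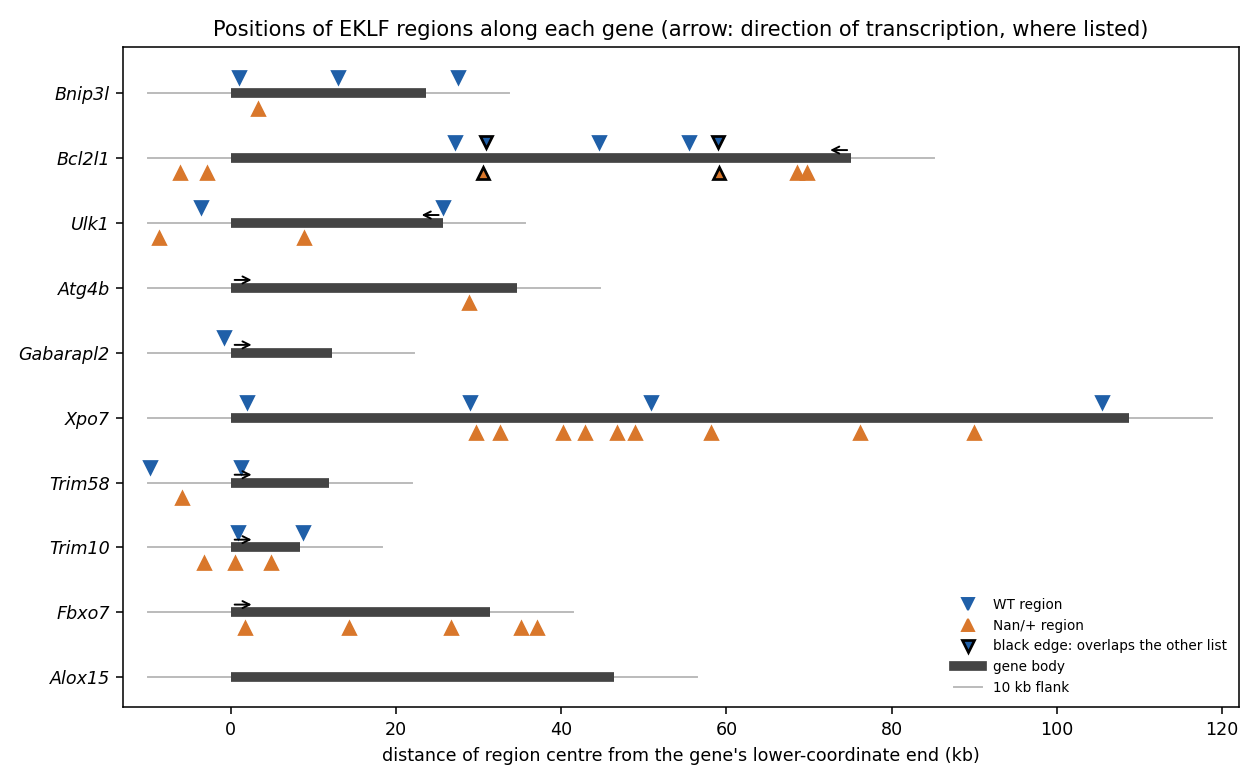
Centres of WT regions (blue, pointing down) and Nan/+ regions (orange, pointing up) in kb from the lower-coordinate end of each gene, with the gene body as a thick bar and the 10 kb flanks as thin lines; arrows are drawn at the gene end from which transcription runs, where a start was listed. Black edges mark the 2 overlapping pairs, both in Bcl2l1. In the other genes no region overlaps the other list, although the closest lie 183 bases apart at Trim10 and 528 at Xpo7.

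In WT 13 regions lay inside 1 of the 10 genes (68.4%) and 6 in the flanks, and in Nan/+ these numbers were 21 (75%) and 7. The gene bodies made up 65.4% of the length searched, so both shares were near the share of the length. A centre within 1 kb of an end of any protein-coding gene was seen for 5 of 19 WT regions (26.3%, against 46.1% of the WT list) and for 1 of 28 Nan/+ regions (3.57%, against 21.8% of the Nan/+ list). These are the outer ends of gene bodies, and starts listed inside a body do not count. Nan/+ regions that covered such starts of Bcl2l1 and Fbxo7 were centred 5.267 and 1.756 kb from the nearer end of their gene. Widths ran from 126 to 1264 bp in WT, with a median of 427 bp (396 bp over the list), and from 176 to 387 bp in Nan/+, with a median of 176 bp in both. In Nan/+ 16 of the 28 regions had the smallest width of that list, 176 bp, as did 54.5% of the list. The lists were called with different size settings, so widths are compared only within a list. Neighbouring genes could claim 8 of the WT and 11 of the Nan/+ regions by the same rule.

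**Figure D3:**
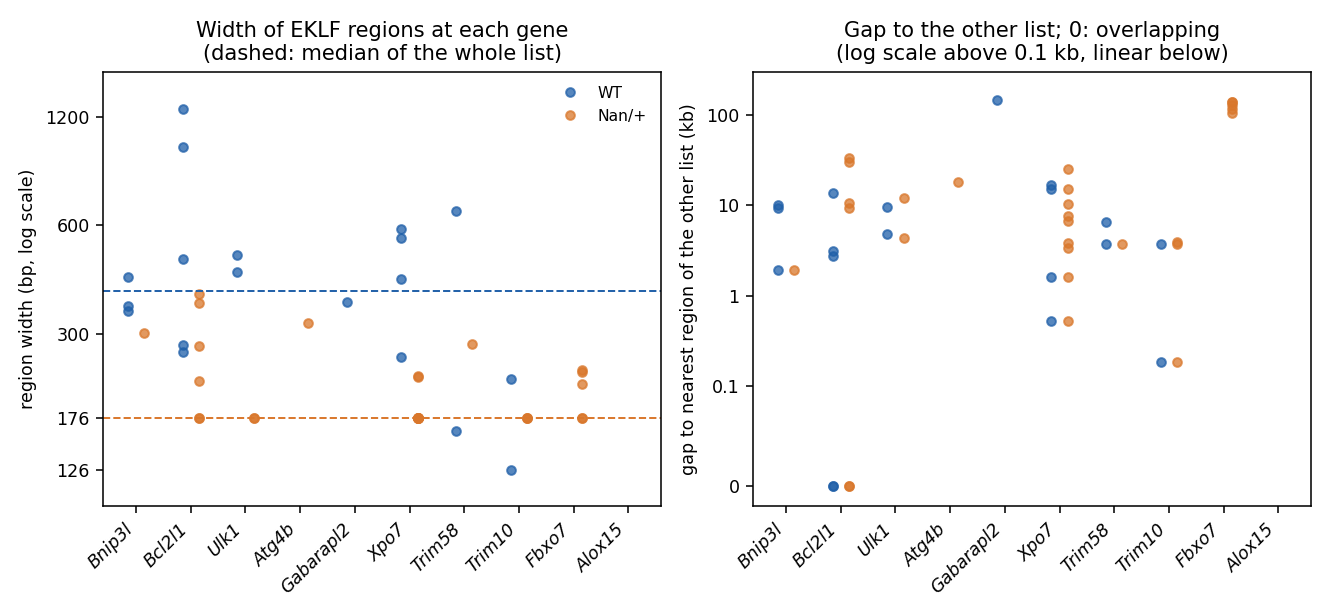
Left, width in bp of each region at each gene, on a log axis, with the median of the whole list dashed (396 bp in WT, 176 bp in Nan/+); right, gap in kb from each region to the nearest region of the other list, where 0 is an overlap. Widths are to be compared within a list only, since the size settings differed. Among these genes the widest region of each list is in Bcl2l1, many Nan/+ regions sit at 176 bp, and the regions of Fbxo7 and Gabarapl2 lie over 100 kb from the other list.

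Bnip3l encodes NIX, the receptor on the outer mitochondrial membrane through which reticulocytes remove mitochondria. It lies on chromosome 14 (66985238 to 67008877) and had 3 WT regions and 1 Nan/+ region. The WT regions were 348 bp at 66986086 to 66986433, 431 bp at 66998037 to 66998467 and 358 bp in the upper flank at 67012544 to 67012901. The last of these could also belong to the neighbour Ppp2r2a. The Nan/+ region of 302 bp at 66988334 to 66988635 lay 1.90 kb from the nearest of them and overlapped none. Of Nan/+ regions 19.4% were at least that wide, so this call was not one of the narrow ones.

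Bcl2l1 encodes BCL-XL, which keeps late erythroblasts alive by blocking mitochondrial apoptosis. This gene, on chromosome 2 (152758732 to 152833803, minus strand), had 5 WT and 6 Nan/+ regions, numbers reached by 1.38% and 2.03% of genes. Its body measures 75.072 kb, against a median of 17.4 kb over all genes. Such shares of genes, here and below, make no allowance for gene length. All 5 WT regions lay inside the gene, 10753 to 42663 bases downstream of the nearest listed start. The widest, 1264 bp at 152813609 to 152814872, is a width reached by 1.66% of the WT list, and it had no Nan/+ counterpart. The region next in width, 991 bp at 152789184 to 152790174 (4.94% of the list), overlapped a Nan/+ region of 387 bp at 152789066 to 152789452. The narrowest WT region, 268 bp at 152817603 to 152817870, overlapped a Nan/+ region of 366 bp at 152817616 to 152817981. In position, 2 of the 5 WT regions were thus shared, and the most extended one had no call in Nan/+.

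At the start of Bcl2l1 the lists differed in the other direction. A Nan/+ region of 278 bp at 152828398 to 152828675 covered the listed start at 152828489 and held the AGATAA element printed above. A further one of 223 bp lay at 152827182 to 152827404. The nearest WT region was 10619 bases from that start. Of the other 2 listed starts, at 152830717 and 152831728, neither was covered in either list, although the window of the first held 2 CCNCNCCC matches. The remaining 2 Nan/+ regions, both 176 bp, lay in the lower flank, where Cox4i2 could also claim them. Without regions of 176 bp, a filter applied to Nan/+ alone, Bcl2l1 had 4 Nan/+ regions beside its 5 in WT.

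Ulk1 encodes the kinase that starts autophagosome formation. On chromosome 5 (110784489 to 110810120, minus strand) it had 2 regions in each list, at 4 different places. A WT region of 497 bp at 110809893 to 110810389 covered its listed start at 110810081 and the whole promoter window. With the start counted as 0, the 3 CCCCGCCC matches in the sequence above began at -222, -144 and -53, and the window held no CCNCACCC match. The nearest Nan/+ region lay 9956 bases from the start. Both Nan/+ regions had the minimum width of 176 bp, 1 of them inside the gene at 110793268 to 110793443 and 1 in the lower flank. The second WT region, 447 bp at 110780698 to 110781144, lay beyond the downstream end, where Ep400 and Pus1 could also claim it. Ulk1 also showed how the 10 kb limit acts: a further Nan/+ region was centred 10.004 kb above the gene, just outside, whereas a WT region 9.784 kb below Trim58 was just inside.

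Over the 7 genes with a promoter window, a WT region overlapped a window of 1 gene, Ulk1, and a Nan/+ region overlapped windows of 2, Bcl2l1 and Fbxo7. Over all 17274 protein-coding genes with a window, the shares were 20.4% in WT and 13.0% in Nan/+. No window of these 7 genes was overlapped in both lists. The share of all genes with such a window was not counted, so nothing is read from this.

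ATG4B and GABARAPL2 act together in the next step. Atg4b encodes the protease that trims ATG8 proteins before they are joined to lipid, and Gabarapl2 encodes one such ATG8 protein. Atg4b, on chromosome 1 (93754905 to 93789606, plus strand), had 0 WT regions and 1 Nan/+ region. That region, 323 bp at 93783553 to 93783875, lay inside the gene, 28809 bases downstream of its start, and within reach of Dtymk. Its promoter window held 4 CCNCNCCC matches in 2 overlapping pairs, which are the pieces printed above, and no region. A WT region was centred 12.466 kb above Atg4b, not far beyond the 10 kb limit. With flanks of 50 kb Atg4b had 3 WT regions and 1 Nan/+ region. Gabarapl2, on chromosome 8 (111940703 to 111952915, plus strand), had 1 WT region and 0 in Nan/+. The WT region, 368 bp at 111939693 to 111940060, was centred at -827 from the start, and Tmem231 could also claim it. Its nearest Nan/+ region was 145.417 kb away.

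Xpo7 encodes exportin 7, a nuclear export receptor that erythroblasts need for nuclear condensation and enucleation. It is the longest of the 10 genes, at 108.739 kb on chromosome 14 (70662126 to 70770864), and had 4 WT and 9 Nan/+ regions, all inside the gene. Only 0.850% of genes had 9 or more Nan/+ regions, and 2.69% had 4 or more WT regions. The WT regions measured 260, 427, 554 and 585 bp, from the lower to the higher coordinate. The one near the upper end, at 70767314 to 70767898, also lay inside Dok2 and the one at the lower end, at 70663959 to 70664218, was within reach of Npm2. Of the Nan/+ regions 7 had the minimum width and the others measured 228 and 230 bp. Nan/+ regions lay along the middle of the gene, from 29.74 to 89.942 kb above its lower end, and none overlapped a WT region. The closest approach was 528 bases, between the WT region at 70690824 to 70691250 and the Nan/+ region at 70691779 to 70691954. With Nan/+ regions above 176 bp alone, and the WT list untrimmed, Xpo7 had 2 beside its 4 in WT.

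The ubiquitin ligase genes fell into different patterns. Trim58 encodes an erythroid ligase that marks the motor protein dynein for degradation during enucleation. On chromosome 11 (58640465 to 58652404, plus strand) it had 2 WT regions and 1 Nan/+ region. The wider WT region, 660 bp at 58641348 to 58642007, was centred 1212 bases downstream of the start, and 18.2% of WT regions were at least as wide. The other WT region, 162 bp, and the Nan/+ region, 282 bp at 58634476 to 58634757, lay upstream in the flank, 3.713 kb apart, where Olfr323 could also claim them. Inside Trim58 there was thus a region in WT alone.

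Trim10 encodes a related TRIM protein needed for red cell maturation and globin expression. This gene, the shortest at 8.338 kb on chromosome 17 (36869496 to 36877833, plus strand), had 2 WT and 3 Nan/+ regions. WT regions of 126 and 225 bp lay at 36870272 to 36870397 and at 36878141 to 36878365. All 3 Nan/+ regions had the minimum width of 176 bp, and the one at 36869913 to 36870088 lay 183 bases from the first WT region, the smallest gap without overlap at any of the 10 genes. Both lists therefore had a call of their own minimum width just downstream of the start at 36869574. All 5 regions could also be claimed by neighbouring Trim genes (Trim15, Trim26 or Trim40). With regions of 176 bp left out of Nan/+ and the WT list untrimmed, Trim10 had 0 Nan/+ regions beside its 2 in WT.

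Fbxo7 encodes an F-box protein, the substrate adaptor of an SCF ubiquitin ligase and a partner of the proteasome regulator PI31. On chromosome 10 (86020449 to 86051873, plus strand) it had 0 WT regions and 5 Nan/+ regions, a number reached by 3.03% of genes. The first, 236 bp at 86022088 to 86022323, covered the listed start at 86022154 and began 159 bases after the other listed start, 86021929. Neither window held a CCNCNCCC match. Of this region 116 bases lay in the second window, and its other bases were not searched. Others of 176 bp and 239 bp lay further inside at 86034724 to 86034899 and 86046972 to 86047210. The last 2, of 176 and 219 bp, lay in the downstream flank inside Syn3. The nearest WT regions were 103.45 kb below the gene and 638.272 kb above it. Of the 5, 3 were wider than the minimum.

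Alox15 encodes the lipoxygenase that oxidises membrane lipids of mitochondria in reticulocytes. In its body of 46.392 kb on chromosome 11 (70344147 to 70390538) and its flanks neither list held a region. The nearest WT regions were centred 104.392 kb below and 61.319 kb above the gene, and the nearest Nan/+ regions 123.309 kb below and 41.871 kb above.

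The order of the lists at a gene depended in part on the 10 kb limit. With flanks of 50 kb it turned at 3 genes: Atg4b then had 3 WT and 1 Nan/+ regions, Xpo7 13 and 11, and Bnip3l 3 and 4. At that limit Ulk1, with equal numbers at 10 kb, had 6 and 7, and Alox15 had 0 and 1. The direction stayed at the other genes, where Fbxo7 had 0 and 5, Bcl2l1 5 and 12, Trim10 3 and 4, Trim58 2 and 1, and Gabarapl2 1 and 0. With flanks of 5 kb Bcl2l1 had 5 and 5, Ulk1 2 and 1, and Trim58 1 and 0. With the gene body alone Bcl2l1 had 5 and 4, Ulk1 0 and 1, and Gabarapl2 0 and 0, and the order stayed at the other genes.

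Other genes of the same processes were counted from 8 lists, which held 95 genes beside the 10. A WT region was present at 65 of the 95 (68.4%, against 33.5% of all genes) and a Nan/+ region at 61 (64.2%, against 37.5%). Both lists had a region at 48, WT alone at 17, Nan/+ alone at 13 and neither at 17. An overlapping pair was present at 26 of the 95 (27.4%, against 13.3% of all genes), which is 54.2% of the 48 with regions in both lists, near the 56.7% of all such genes. These genes had a median length of 27.2 kb, also above the 17.4 kb of all genes. The lists too were chosen with earlier results of these data known, and they were not tested.

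**Figure D4:**
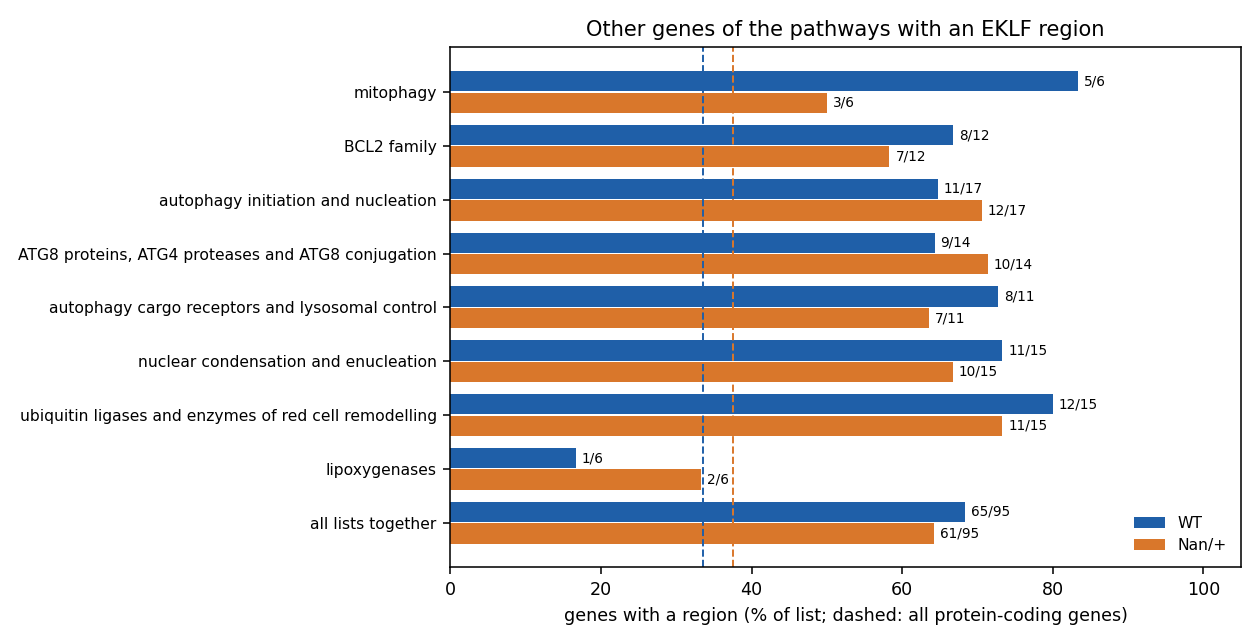
Percentage of genes with an EKLF region in WT (blue) and Nan/+ (orange) in each of 8 lists of other genes of these processes and in all together, with the number of genes beside each bar and all protein-coding genes as dashed lines (33.5% in WT, 37.5% in Nan/+). The lipoxygenase list, with 1 and 2 of 6 genes, alone lies below both lines.

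Of 6 other mitophagy genes 5 had a WT region and 3 a Nan/+ region. Bnip3, the closest relative of Bnip3l, had 2 WT and 0 Nan/+ regions. Bcl2l13, an outer membrane mitophagy receptor, had 4 and 3, Fkbp8 had 2 and 3 with 2 WT regions overlapping, and Pink1, encoding a mitochondrial kinase, had 1 and 1. Among 12 other BCL2 family genes 8 had a WT region and 7 a Nan/+ region, and 5 had an overlapping pair. Mcl1, a survival factor like Bcl2l1, had 3 WT and 4 Nan/+ regions with 2 WT regions overlapping. Bax, a pore-forming killer, had 2 and 3, while Bcl2l2 and Bid each had 2 in both lists.

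Of 17 other initiation and nucleation genes 11 had a WT region and 12 a Nan/+ region. Ulk2, the paralogue of Ulk1, had 2 WT and 0 Nan/+ regions. Atg14, of the lipid kinase complex, had 4 and 3, Ambra1 had 2 and 4, Uvrag 1 and 5, and Wipi1 2 and 4. Among 14 other genes of the ATG8 system 9 and 10 had a region. In the ATG8 family, Gabarap had 3 in each list, all 3 overlapping, Gabarapl1 had 0 and 1, Map1lc3a had 1 and 0, and Map1lc3b had 0 and 1. Of the ATG4 proteases, Atg4a had 2 in each list, Atg4c had 0 in each and Atg4d had 2 and 3, with 1 pair overlapping. Atg5, which helps to join ATG8 to lipid, had 2 and 4. Gabarap, with a body of 3.58 kb, thus had 3 overlapping pairs, whereas the only region of Gabarapl2 was in WT. Claims by neighbouring genes are given for the 10 genes alone, so the regions of Gabarap may also belong to neighbours.

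The cargo receptor and lysosome list of 11 genes had regions at 8 in WT and 7 in Nan/+. Foxo3, which encodes a transcription factor of autophagy genes in erythroblasts, had 12 WT and 8 Nan/+ regions, 3 overlapping. The lysosomal protease gene Ctsd had 4 and 1, and the cargo receptor genes Nbr1 and Sqstm1 had 2 and 3 and 2 and 2. Of 15 other enucleation genes 11 and 10 had a region. Diaph3, encoding a formin of the contractile ring, had 5 and 8 over a body of 485.891 kb, the lamin gene Lmnb1 had 5 and 5, Cdc42 had 1 and 8, and Kmt5a, encoding a histone H4 methyltransferase, had 3 and 1. In the list of ubiquitin enzymes and ligases 12 and 11 of 15 other genes had a region. Ube2h had 6 and 10, with 4 WT regions overlapping, Ube2o, which marks ribosomal proteins for removal in reticulocytes, had 5 and 6, Usp15 had 4 and 6 and Cul3 had 2 and 14. The 6 other genes of the lipoxygenase list had few: Alox12 had 1 WT region, Alox5 had 2 Nan/+ regions, Alox5ap, encoding a lipoxygenase activator, had 1 Nan/+ region, and Alox12b, Alox8 and Aloxe3 had 0.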

How the data were processed

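ChIP for EKLF was analysed from 1 list of regions per genotype, made from 3 libraries each. Per the file headers, the authors called regions with HOMER on mm10 against input libraries, at a q of 0.01 and a fold of 4, with a DESeq2 step at an FDR of 0.01 and a minimum log2 fold of 2. The size and minimum distance were 125 and 250 bp for WT and 175 and 300 bp for Nan/+. In each list 1 of 2 inputs was used again. The submitters' processing notes name Bowtie2 2.1 and SAMtools 1.1. The score deposited by the authors is 1 in every row and was not used. BED positions were converted so that counting starts at 1.

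Of 21900 protein-coding genes in the table, 269 on Y, mitochondrial or unplaced sequence and 110 on unlocalised or alternate sequence were left out. Regions were called overlapping from 1 bp. Counting used pandas 2.3.3 and was checked on simulated regions. Named were the 10 genes, up to 4 others per list with the most regions, and the members' family relatives. The members and lists were chosen with earlier results of these data known, so their counts are descriptions and no list was tested. From the mitophagy list 1 gene is not reported here. Alternatives were gene ends at 0, 5 and 50 kb, other overlap rules, wider regions and merged regions.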

Additional observations from a re-analysis of the deposited data

How the results depend on the processing

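Of 55 alternative values 40 stayed within 1.5 times of the reported count. With gene ends within 50 kb the 10 genes held 36 WT and 46 Nan/+ regions, with 6 of each overlapping, as the larger segment implies. With Nan/+ regions above the minimum width there were 12 Nan/+ regions. With regions wider than the median of their list there were 10 WT and 12 Nan/+, with 1 of each overlapping, since fewer regions enter. The Nan/+ median is the minimum width, so both settings kept the same Nan/+ regions, 7083 of the 15564 in the list. In WT 4582 of 9181 were kept. Overlapping regions numbered 1 in each list with a reciprocal overlap of 50% and with centres within 250 bp, and 4 in each when a region of the other list within 1 kb counted. Genes with a region ranged from 5 to 8 in WT and from 6 to 9 in Nan/+. The excess of Nan/+ over WT regions was lost without Nan/+ regions of the minimum width (12 against 19), where the WT list was not trimmed. It remained where both lists were trimmed at their median width (12 against 10). No paired analysis was possible because the replicates of a genotype were combined in 1 list, and no replicate could be left out. Absence from a list does not separate weak occupancy from none, since no tag counts per region were used.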
